A study of Glycine max with 12 samples.

Results

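MADS-box transcription factors were taken as all soybean gene models whose deposited annotation holds the Pfam domain PF00319, the DNA-binding MADS domain. The rule used annotation only and no measured value, and it gave 172 of the 56044 models in the table. Of these, 88 also held the K-box (PF01486), the coiled region through which plant MADS proteins pair, and 84 did not.

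The libraries, 12 in all, were RNA-Seq of 1 sample per condition from greenhouse plants of Glycine max, without replicates. 11 came from the cultivar Williams, which has yellow seeds and the ii allele of the I locus: cotyledons and seed coats of immature 5–6 mg seed, seed coats of immature 25–50 mg seed, cotyledons without the axis, embryo axes and seed coats of yellow, desiccating 200–300 mg seed, axes of 300–400 mg seed, cotyledons and seed coats of mature dry seed, roots at 5 days, and furled trifoliate leaves of 1–1.5 inch from adult plants. The last library was from seed coats of 25–50 mg seed of W55, a black-seeded line of the Williams isolines with the i allele, which is held to have arisen by spontaneous mutation. The paper reports that W55 carries a large deletion at the I locus, which also removes genes other than chalcone synthase genes. Its pedigree places the origin of W55 in a backcross isoline of Williams with added disease resistance genes. Whether W55 and the Williams plants sampled here differ at further loci was not tested here. Values are RPKM, the number of alignments (hits) per kilobase of model and 1 M alignments of the library. All differences below are between single libraries, so they carry no test, and the 95% intervals are exact binomial (Clopper-Pearson) intervals that cover counting error only. In each organ, fewer cells of a type and less RNA per cell cannot be told apart.

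Plant MADS proteins bind DNA as dimers and join into tetramers. In Arabidopsis the MIKC type, with MADS, I, K and C regions, sets the identity of floral organs, controls the time of flowering and acts in ovules, fruits, seeds and roots. Type I proteins, which lack the K-box, are known mainly from the female gametophyte and the endosperm. Ovule identity rests there on AGAMOUS (AG), SHATTERPROOF (SHP1, SHP2), SEEDSTICK (STK) and SEPALLATA (SEP) proteins acting together, and the integuments of the ovule become the seed coat. Groups below follow the closest Arabidopsis match that the authors deposited for each model, and the symbol given after a model is that of the match.

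The library totals behind the values ranged from 14.7 M alignments in leaf to 187 M in root, so that 3 hits on a member of median length were worth between 0.0148 RPKM in root and 0.188 RPKM in leaf. Unannotated chromosome 13 models made up 75.7% of all RPKM at 5–6 mg for the seed coat, 54.0% for the cotyledon of the same weight and 47.6% for the mature, dry seed coat. Without them all values of these libraries would be 2.40, 1.46 and 1.40 times as high, and those of the other libraries 1.01 to 1.09 times. The 6 desiccating and dry libraries also differ from the others in read length and instrument. Light-harvesting and Rubisco small subunit models summed to 29049 RPKM in leaf and to at most 2591 elsewhere. Oleosins, the oil body proteins of embryos, summed to 1719 RPKM or more in the late cotyledons and axes. In seed coats oleosins summed to 1.65 RPKM at 5–6 mg, 50.2 at 25–50 mg, 315 at 200–300 mg and 484 in dry seed. Models of late embryo LEA proteins summed there to 22.7, 117, 10089 and 22622 RPKM at the same stages. In the late cotyledons and axes the LEA models summed to between 9012 and 20733 RPKM. Models of the Casparian strip family did not single out root, with 229 RPKM there and 568 in the 200–300 mg seed coat.

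MADS-box transcripts were most abundant in the growing seed coat, and different groups of the family led in seed coat, young cotyledon, root and leaf. At least 1 RPKM in at least 1 library was reached by 71 members, which is 41.3% of the family beside 73.3% of all models. Among members with a K-box 66 of 88 reached it, and among those without 5 of 84. No hits in any library were listed for 26 members. The other 75 members below 1 RPKM had hits, and the median of their highest values was 0.122 RPKM.

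**Figure D1:**
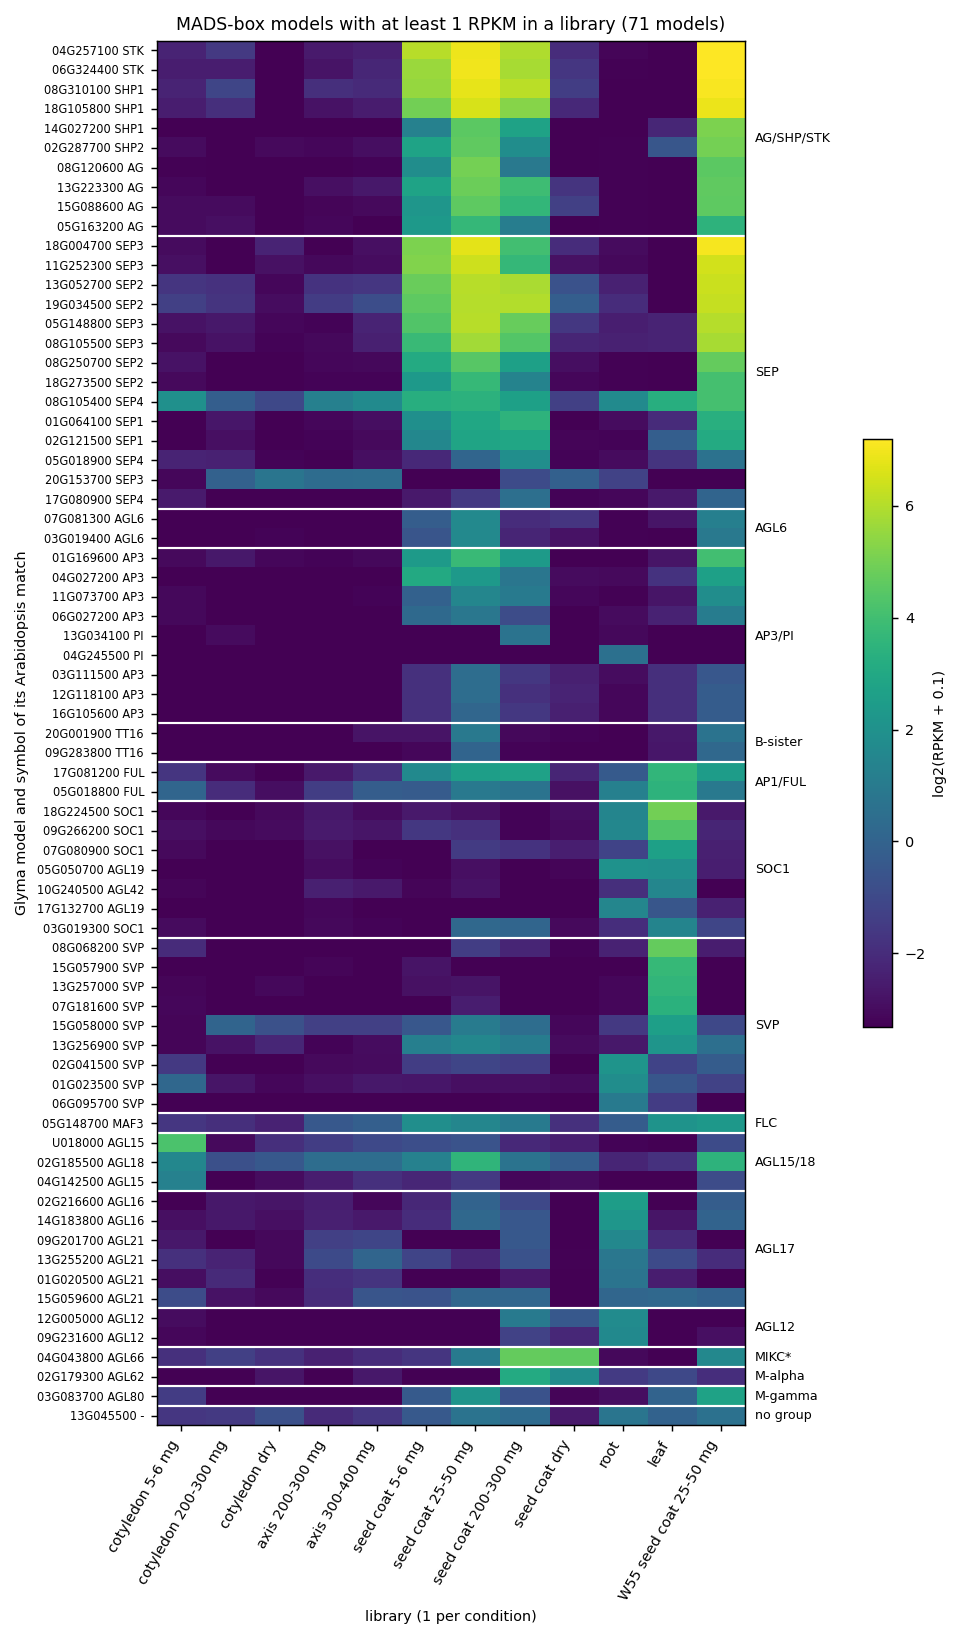
RPKM of the 71 MADS-box models with at least 1 RPKM in a library (rows, by group) in each of the 12 libraries (columns, 1 library each), on a log colour scale. High values are bright and low values dark. AG, SHP and STK matches are bright in the seed coat columns before the dry stage and dark elsewhere, never above 0.610 RPKM in other organs. SVP and SOC1 matches are brightest in leaf or root.

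Of the 70 members with at least 1 RPKM in a Williams library, 38 were highest in a seed coat, 3 in a cotyledon, 0 in an axis, 14 in root and 15 in leaf. This is 54.3% in the seed coat beside 29.6% of all models at the same minimum, and 4.29% in the cotyledon beside 19%. The axis held the highest value of 10.8% of all models. In root the members' share of 20% lay near the 20.8% of all models, and in leaf 21.4% lay near 19.8%. The seed coat of 25–50 mg seed alone was the highest library of 30 members. Dividing by totals without the chromosome 13 models, an alternative that moves the 5–6 mg values most, made the 5–6 mg seed coat the highest of 9 members and the 25–50 mg seed coat of 26.

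The members' share of all RPKM in the seed coat was 0.0534% at 5–6 mg, 0.341% at 25–50 mg, 0.159% at 200–300 mg and 0.00664% in dry seed, and 0.367% in W55. The share was 0.0511% in leaf and 0.0164% in root. In cotyledons and axes it lay between 0.00127% and 0.00553%. With the chromosome 13 models left out of the sum, a choice made after seeing the data, the 5–6 mg seed coat stood at 0.220% and the 25–50 mg seed coat at 0.363%. In both denominators the 25–50 mg seed coats of Williams and W55 held the highest shares and the late cotyledons the lowest.

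**Figure D2:**
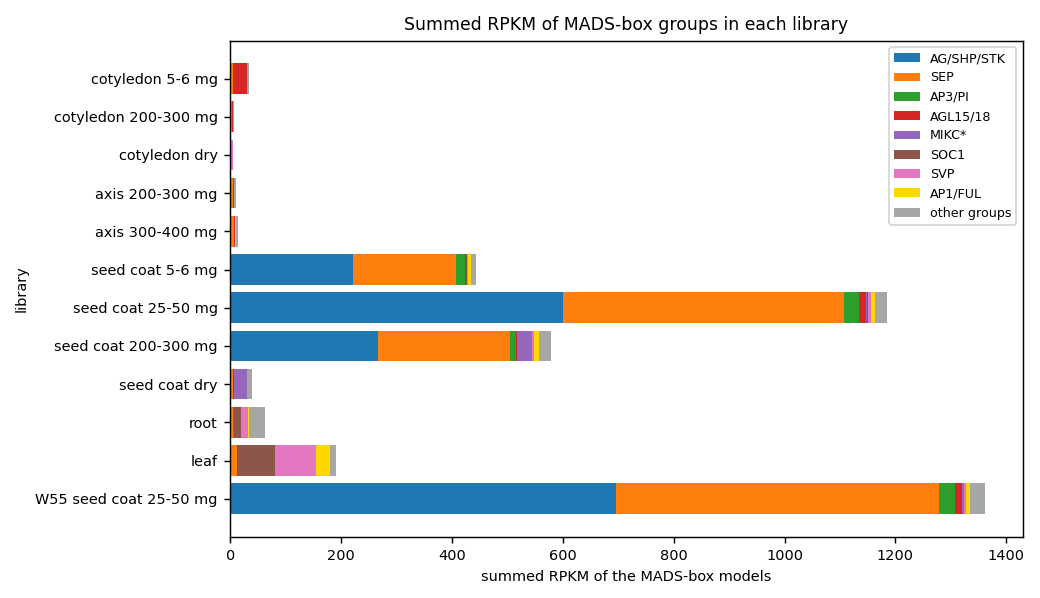
Summed RPKM of the 172 MADS-box models in each library, 1 bar per library, split by group. The bars reach 1186 RPKM in the Williams seed coat of 25–50 mg seed and 1362 in W55, against 190.0 in leaf, 62.2 in root and 34.3 or less in cotyledons and axes.

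The AG, SHP and STK matches, the ovule and carpel identity group, were transcripts of the seed coat before the dry stage. In the dry seed coat none exceeded 0.300 RPKM and 4 were listed at 0. All 10 reached 1 RPKM, all 10 had their highest Williams value in the 25–50 mg seed coat, and none exceeded 0.610 RPKM in any of the 7 libraries from other organs. In leaf 8 of the 10 were listed at 0. The 4 STK and SHP1 matches with the highest values made up 43.3% of the family's summed RPKM in the 5–6 mg seed coat, 38.3% at 25–50 mg, 39.0% at 200–300 mg and 40.2% in W55.

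STK directs ovule identity and acts in the seed coat and funiculus in Arabidopsis. Its match Glyma.06G324400 stood at 49.3 RPKM in the 5–6 mg seed coat, 124.7 at 25–50 mg, 56.9 at 200–300 mg and 0.220 in dry seed, and at 144 in W55. Outside the seed coat it did not exceed the 0.120 RPKM of the 300–400 mg axis, so the 25–50 mg value was 1042-fold higher (interval 688 to 1665). The other match, Glyma.04G257100, stood at 66.2, 122.8, 62.2 and 0.151 RPKM at the same stages, and at 146 in W55. The copies on chromosomes 4 and 6 therefore ran side by side, with the same peak at 25–50 mg and the same low dry level. For Glyma.04G257100 that peak depends on the denominator, since the 25–50 mg value was 1.85 times the 5–6 mg value as deposited and 0.788 times without the chromosome 13 models.

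SHP1 and SHP2 shape the margin at which Arabidopsis fruits open and act in ovules. Glyma.08G310100 (SHP1) stood at 45.7, 112, 67.9 and 0.273 RPKM from 5–6 mg to dry seed coat, and at 138 in W55. Glyma.18G105800 (SHP1) stood at 30.6, 94.98, 38.5 and 0.133 RPKM, and at 118 in W55. At 25–50 mg both were close to the STK matches, and neither exceeded 0.355 RPKM in another organ. Glyma.14G027200 (SHP1), which lacks the K-box in its annotation, was lower, with 2.35, 23.5 and 6.54 RPKM and 0 in dry seed, and 34.7 in W55. The SHP2 match Glyma.02G287700 stood at 6.69, 24.9 and 3.49 RPKM, at 0 in dry seed and at 32.3 in W55. Its 0.610 RPKM in leaf was the highest value of the whole group outside the seed coat.

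AG gives stamens and carpels their identity in Arabidopsis. The AG matches were lower than the leading STK and SHP1 matches and differed from one another over time. At 25–50 mg they stood at 31.5 RPKM for Glyma.08G120600, 28.4 for Glyma.13G223300, 24.2 for Glyma.15G088600 and 12.9 for Glyma.05G163200. By 200–300 mg these values were 1.78, 15.2, 12.4 and 2.12 RPKM. Glyma.08G120600, the highest of the 4 at 25–50 mg, was thus the lowest at 200–300 mg.

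SEP proteins are the shared partners that complete floral and ovule MADS tetramers in Arabidopsis. Of 15 SEP matches 14 reached 1 RPKM. The 25–50 mg seed coat was the highest Williams library of 9, the 200–300 mg seed coat of 4 and the dry cotyledon of 1. Apart from Glyma.08G105400 and Glyma.20G153700, the other 12 did not exceed 0.783 RPKM outside the seed coat.

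Matches of SEP3 led the group. Glyma.18G004700 stood at 34.6, 109.4, 16.2 and 0.150 RPKM in seed coats from 5–6 mg to dry seed, and at 131 in W55. Glyma.11G252300 stood at 36.3, 83.0, 12.7 and 0.0381 RPKM, and at 89.4 in W55. Both had fallen well below their peak by 200–300 mg, and no other organ exceeded 0.109 RPKM for either. SEP3 matches Glyma.05G148800 and Glyma.08G105500 reached 67.8 and 53.8 RPKM at 25–50 mg and held 27.0 and 20.5 RPKM at 200–300 mg.

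The SEP2 matches Glyma.13G052700 and Glyma.19G034500 kept their level for longer. Glyma.13G052700 stood at 66.5 RPKM at 25–50 mg and 58.7 at 200–300 mg, and Glyma.19G034500 at 65.4 and 63.0. At 200–300 mg they were close to the STK and SHP1 matches, whereas the SEP3 matches lay below them. SEP1 matches Glyma.01G064100 and Glyma.02G121500 were highest at 200–300 mg, at 11.2 and 7.37 RPKM. SEP4 matches Glyma.05G018900 and Glyma.17G080900 were also highest there, at 3.58 and 1.33 RPKM.

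The remaining SEP matches at 1 RPKM were not confined to the seed coat. Glyma.08G105400 (SEP4) stood at 10.9 RPKM in the 25–50 mg seed coat, 9.49 in leaf, 3.82 in the 5–6 mg cotyledon, 3.21 in root and 3.14 in the 300–400 mg axis. Its seed coat value was 1.15 times the leaf value (interval 0.923 to 1.43), which counting error does not separate. Without the chromosome 13 models its highest value was 23.1 RPKM, in the 5–6 mg seed coat (9.62 as deposited), so the likeness of seed coat and leaf depends on the totals. Glyma.20G153700 (SEP3) was listed at 0 in the seed coats of 5–6 mg and 25–50 mg seed, where other SEP3 matches peaked. It stood at 1.59 RPKM in the dry cotyledon, 1.23 and 1.27 in the axes and 0.828 in the dry seed coat.

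AP3 and PI form the pair that specifies petals and stamens in Arabidopsis. In these libraries the AP3 matches were seed coat transcripts, and 1 of the PI matches reached 1 RPKM there. Glyma.01G169600 (AP3) stood at 5.23, 14.0 and 5.18 RPKM at 5–6, 25–50 and 200–300 mg, at 0 in dry seed, and at 16.2 in W55. Glyma.04G027200 (AP3) stood at 8.38, 4.91 and 1.63 RPKM, with its highest value in the youngest seed coat. Outside the seed coat neither exceeded 0.188 RPKM. Of the 4 PI matches, Glyma.13G034100 had 1.51 RPKM in the 200–300 mg seed coat and no hits in the younger ones, and Glyma.04G245500 had 1.37 RPKM in root and no hits in any other library. The AP3 matches Glyma.03G111500, Glyma.12G118100 and Glyma.16G105600, each 399 nt long, had nearly the same value in every library, from 1.01 to 1.26 RPKM at 25–50 mg. Their reads may be shared, and their separate levels are uncertain.

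B-sister proteins are named for their kinship with the AP3 and PI clade, and in Arabidopsis TRANSPARENT TESTA16 (TT16) acts in the inner integument, where seed coat pigment precursors form. Its match Glyma.20G001900 stood at 0.0478 RPKM in the 5–6 mg seed coat, 1.78 at 25–50 mg, 0.0161 at 200–300 mg and 0.00794 in dry seed. Glyma.09G283800 stood at 0.0142, 0.935, 0.00716 and 0 RPKM. Both thus reached 0.1 RPKM in 1 Williams library only, the 25–50 mg seed coat, and stood at 1.52 and 1.08 RPKM in W55. AGL6 matches Glyma.07G081300 and Glyma.03G019400, relatives of SEP, had the same peak, with 3.01 and 2.98 RPKM at 25–50 mg and 0.749 and 0.574 RPKM at 5–6 mg.

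**Figure D3:**
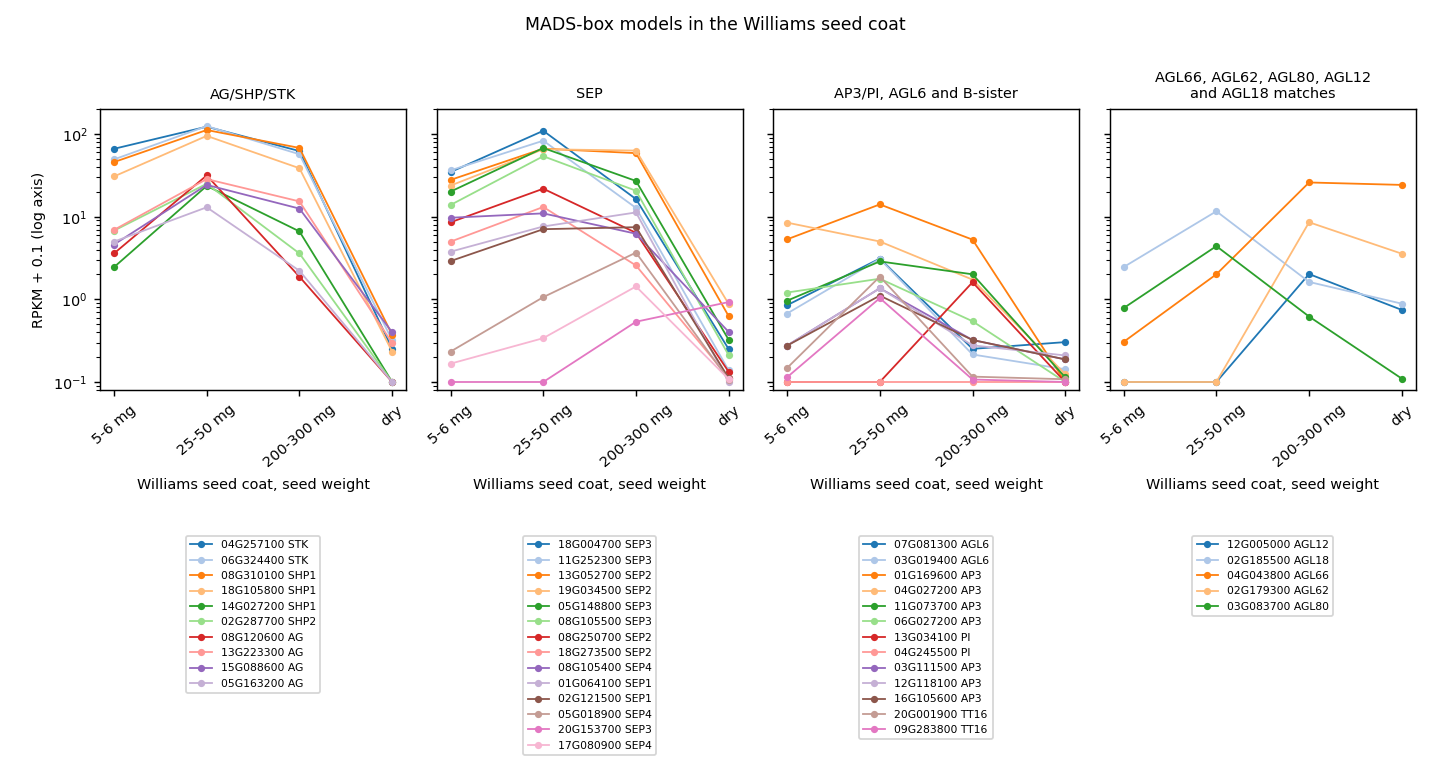
RPKM plus 0.1 (log axis) of MADS-box models in Williams seed coats of 5–6 mg, 25–50 mg, 200–300 mg and dry seed (1 library each, 1 line per model), in 4 panels by group. Most lines rise to 25–50 mg as deposited and end near the bottom in dry seed, whereas the AGL66 match Glyma.04G043800 stays at 25.9 and 24.2 RPKM.

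The first interval, from 5–6 to 25–50 mg, cannot be read without the library totals. Of 42 members with at least 1 RPKM in either library and hits in both, 40 were higher at 25–50 mg as deposited, with a median ratio of 2.93. Without the chromosome 13 models in the totals 31 were higher and the median ratio was 1.25. Left out is Glyma.03G019300 (SOC1), with 28 hits at 25–50 mg and 0 at 5–6 mg. The highest ratio with hits in both libraries was that of Glyma.20G001900 (TT16), at 37.3 and 15.9 on 9 hits at 5–6 mg. Among the AG, SHP and STK matches the ratio stayed well above 1 on either basis for Glyma.08G120600 (AG), at 9.01 and 3.83, and Glyma.14G027200 (SHP1), at 9.99 and 4.25. It did so too for Glyma.04G043800 (AGL66), at 9.28 and 3.95, and Glyma.03G083700 (AGL80), at 6.297 and 2.68. For Glyma.06G324400 (STK) the ratios were 2.53 and 1.08. The AP3 match Glyma.04G027200 was lower at 25–50 mg on either basis, at 0.586 and 0.249 times.

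From 25–50 to 200–300 mg, as the seed coat passed from growth to desiccation, most floral and ovule matches fell. The libraries of these stages also differ in read length and instrument, and the part of that in the falls was not tested. Of 48 members with at least 1 RPKM in either library, 23 were at least 2-fold lower and 6 at least 2-fold higher. Among all models 33.3% were lower and 19.1% higher by the same limit. Members that passed the minimum through only 1 of these libraries had their direction fixed by the filter, so these counts partly reflect it. A higher example is Glyma.02G179300, at 0 RPKM at 25–50 mg and 8.47 at 200–300 mg. A lower example is Glyma.20G001900, at 1.78 and 0.0161 RPKM. The median difference of the members was −0.97 on the log2(RPKM + 0.1) scale, against −0.26 for all models. All 10 AG, SHP and STK matches were lower, 6 of them by at least 2-fold. Their ratios ran from 1.65-fold lower for Glyma.08G310100 (SHP1) to 17.7-fold lower for Glyma.08G120600 (AG; interval 15.5 to 20.3).

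SEP matches divided in this interval. Glyma.18G004700 and Glyma.11G252300 (SEP3) were 6.74-fold and 6.55-fold lower. Glyma.13G052700 and Glyma.19G034500 (SEP2) were at 0.882 and 0.963 of their earlier RPKM. Glyma.05G018900 (SEP4) was 3.71-fold higher (interval 2.51 to 5.74) and Glyma.17G080900 (SEP4) 5.57-fold higher (2.34 to 17.4). The AGL6 matches Glyma.03G019400 and Glyma.07G081300 were 25.9-fold and 19.9-fold lower. Glyma.20G001900 (TT16) was 111-fold lower on 2 hits at the later stage (interval 28.7 to 946).

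Other members appeared in the desiccating seed coat. The largest was Glyma.04G043800, a match of AGL66, a MIKC* protein of Arabidopsis pollen. It stood at 0.206 RPKM at 5–6 mg, 1.91 at 25–50 mg, 25.9 at 200–300 mg and 24.2 in dry seed, and did not exceed 0.294 RPKM outside the seed coat. The rise to 200–300 mg was 13.5-fold (interval 10.7 to 17.4). Glyma.02G179300, a match of the endosperm regulator AGL62, had no hits at 5–6 or 25–50 mg, 8.47 RPKM at 200–300 mg and 3.47 in dry seed, which was at least 29.95-fold higher at 200–300 mg than 3 hits at 25–50 mg would be. Glyma.12G005000, a match of the root regulator AGL12, went from no hits to 1.92 RPKM, at least 16.7-fold. Among seed coats, these 3 models were high in libraries that share read length and instrument, and the part of that in the result was not tested. Oleosins were higher in the same libraries, at 315 RPKM at 200–300 mg against 50.2 at 25–50 mg. Late embryo LEA models were higher there too, at 10089 against 117 RPKM. Cotyledons and axes held at most 0.294 RPKM of Glyma.04G043800 and 0.0595 RPKM of Glyma.02G179300.

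Few MADS-box transcripts were left in the dry seed coat. At least 1 RPKM was reached by 38 members at 200–300 mg and by 2 in dry seed, while 25742 and 17600 of all models reached it. Of these 38, 36 passed the minimum only through the earlier library. At least 2-fold lower were 36 and at least 2-fold higher 0, beside 49.1% of all models lower and 3.71% higher. Glyma.04G257100 (STK) was 413-fold lower (interval 286 to 622) and Glyma.06G324400 (STK) 259-fold lower (196 to 350). Glyma.01G064100 (SEP1) had no hits in dry seed, which made it at least 584-fold lower. The denominators of the dry library differ by a factor of 1.40. Other scalings moved this comparison for all models by 0.69 (median ratio) and −0.68 (TPM) on the log2 scale. The part of scaling or RNA quality in the falls was not tested.

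Few members stood near or above 1 RPKM in the dry seed coat. At least 1 RPKM was held by 2 of them, Glyma.04G043800 (AGL66) and Glyma.02G179300 (AGL62). The AGL66 match was at 0.934 of its 200–300 mg RPKM (interval 0.899 to 0.971), and without the chromosome 13 models it was higher in dry seed, at 33.9 against 26.7 RPKM. Glyma.02G185500, a match of the flowering repressor AGL18, was 1.94-fold lower (1.56 to 2.41), at 0.787 RPKM. Nothing in the AG, SHP and STK group exceeded 0.300 RPKM there.

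Seed coat and cotyledon of the same seed weight were compared next. At 5–6 mg, 28 members reached 1 RPKM in the seed coat and 5 in the cotyledon, 31 in all, and most of these passed through the organ where they are high. In the seed coat 27 were at least 2-fold higher and 3 at least 2-fold lower, beside 11.8% of all models higher and 50.5% lower. Glyma.04G257100 (STK) was 636-fold higher in the seed coat (interval 448 to 936). The denominators of these libraries differ by factors of 2.40 and 1.46. At 200–300 mg, 38 members reached 1 RPKM in the seed coat and 0 in the cotyledon. The direction of all 38 was therefore fixed by the filter, and 37 were at least 2-fold higher in the seed coat and 0 at least 2-fold lower, beside 32.5% and 11.9% of all models. The exception was Glyma.15G058000, an SVP match, at 1.24 RPKM in the seed coat and 0.937 in the cotyledon.

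Few members marked the embryo. In the 5–6 mg cotyledon 5 members reached 1 RPKM, and AGL15 and AGL18 matches made up 69.7% of the family's summed RPKM. AGL15 is an embryo MADS protein of Arabidopsis that promotes somatic embryo formation. Its match Glyma.U018000, on an unplaced scaffold, stood at 18.7 RPKM in the 5–6 mg cotyledon and at 0.0202 in the 200–300 mg and 0.165 in the dry cotyledon. It stood at 0.271 and 0.406 RPKM in the axes, at 0.551 or less in all seed coats, at 0.00834 in root and at 0 in leaf. The young cotyledon was therefore 34.0-fold above the next library, the 25–50 mg Williams seed coat (interval 20.2 to 62.3). The other AGL15 match, Glyma.04G142500, had 2.37 RPKM in the 5–6 mg cotyledon and at most 0.448 elsewhere. Glyma.02G185500 (AGL18) did not share this pattern, with 2.78 RPKM in the young cotyledon, 2.36 in the seed coat of equal weight and 11.5 by 25–50 mg.

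At 200–300 mg 0 members reached 1 RPKM in the cotyledon, against 5 at 5–6 mg, while 21061 and 23051 of all models did. These libraries too differ in read length and instrument, and the part of that was not tested. The 5 passed the minimum only through the younger library, so the filter fixed their direction, and all 5 were at least 2-fold lower and 0 higher, beside 35.6% of all models lower and 34.4% higher. Glyma.U018000 was 929-fold lower on 1 hit (interval 167 to 36707), and Glyma.04G142500, with no hits, at least 20.03-fold lower. Glyma.01G023500, an SVP match, was 19.6-fold lower. Glyma.02G185500 (AGL18) was 5.65-fold lower and Glyma.08G105400 (SEP4) 4.82-fold lower. Between axis and cotyledon of 200–300 mg seed, 3 members had at least 1 RPKM, all of them in the axis alone, so that none could be lower there. In the axis 2 were at least 2-fold higher, Glyma.02G185500 (AGL18) at 1.25 against 0.493 RPKM and Glyma.08G105400 (SEP4) at 2.28 against 0.792, beside 10.8% of all models higher and 8.95% lower.

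Leaf and root carried other groups of the family, those of flowering time and of root growth. SOC1 promotes flowering in Arabidopsis, where it joins signals from day length and cold. Glyma.18G224500 (SOC1) stood at 30.9 RPKM in leaf and 2.69 in root, and did not exceed 0.0652 RPKM in seed libraries. Its leaf value was 11.5-fold above root (interval 10.3 to 12.8). Glyma.09G266200 (SOC1) stood at 20.2 RPKM in leaf and 2.82 in root, and Glyma.07G080900 (SOC1) at 6.19 and 0.338. Glyma.05G050700, a match of the related AGL19, had similar values in both, at 3.74 RPKM in leaf and 4.03 in root (root 1.08 times, interval 0.859 to 1.37).

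SVP is a repressor of flowering in Arabidopsis, and its matches divided between leaf and root. Of the 10 models in the SVP group 6 were highest in leaf and 3 in root among those at 1 RPKM. Glyma.08G068200 stood at 26.0 RPKM in leaf and 0.0993 in root. Glyma.15G057900, Glyma.13G257000 and Glyma.07G181600 stood at 13.2, 12.2 and 10.5 RPKM in leaf and at no more than 0.0150 in root. Glyma.02G041500, Glyma.01G023500 and Glyma.06G095700 were the reverse, at 4.28, 3.48 and 1.90 RPKM in root and 0.336, 0.607 and 0.270 in leaf.

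FUL is a fruit valve regulator of the AP1 group. The 2 FUL matches that reached 1 RPKM were highest in leaf, where Glyma.17G081200 stood at 12.0 RPKM and Glyma.05G018800 at 10.97. Glyma.17G081200 was also in seed coats, at 3.12, 5.85 and 6.44 RPKM from 5–6 to 200–300 mg. The other 10 of the 12 AP1 and FUL matches stayed under 1 RPKM in all libraries, at 0.856 or less. Glyma.05G148700, a match of the FLC relative MAF3, was in both leaf, at 4.17 RPKM, and the 5–6 mg seed coat, at 3.56, and without the chromosome 13 models the seed coat was the higher, at 8.54 against 4.22 RPKM.

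In root the AGL17 group took 27.8% of the family's summed RPKM, the SOC1 group 21.0%, the SVP group 17.7% and the AGL12 group, named for a regulator of root growth in Arabidopsis, 10.3%. Glyma.02G216600 (AGL16) stood at 5.61 RPKM in root, 0.926 in the 25–50 mg seed coat and 0 in leaf. Glyma.14G183800 (AGL16) stood at 4.48 RPKM in root and 1.07 in the 25–50 mg seed coat. AGL21, which promotes lateral root growth in Arabidopsis, had matches Glyma.09G201700, Glyma.13G255200 and Glyma.01G020500 at 2.87, 1.72 and 1.56 RPKM in root. The AGL12 matches Glyma.12G005000 and Glyma.09G231600 stood at 3.28 and 3.12 RPKM in root and at 0 in leaf. Levels in root were lower than in leaf, and the highest root value of any member was 5.61 RPKM.

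**Figure D4:**
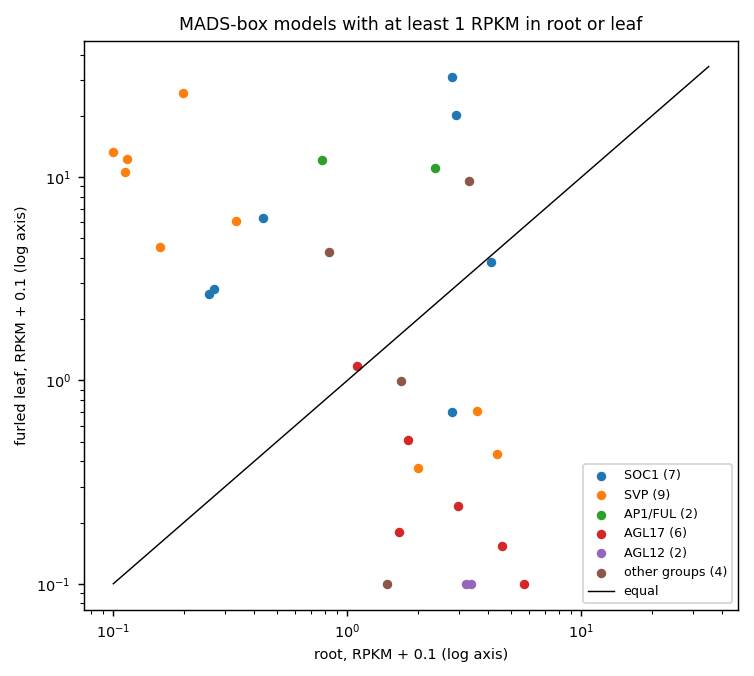
RPKM plus 0.1 in root (x, log axis) and in furled leaf (y, log axis) of the 30 MADS-box models with at least 1 RPKM in either, 1 point per model coloured by group, with a line of equality. SOC1 matches such as Glyma.18G224500 (30.9 RPKM in leaf, 2.69 in root) and 6 SVP matches lie above the line, and the AGL12 and AGL16 matches lie below it.

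Type I members were close to absent. Of 64 models in the M-alpha and M-gamma groups 2 reached 1 RPKM, the AGL62 match Glyma.02G179300 and Glyma.03G083700. The latter matches AGL80, which acts in the Arabidopsis central cell and endosperm, and stood at 0.684 RPKM in the 5–6 mg seed coat, 4.31 at 25–50 mg, 0.519 at 200–300 mg and 0.00984 in dry seed, with 6.51 in W55. Of the 32 AGL62 matches 15 lie on chromosome 10, and none of these exceeded 0.321 RPKM in any library. Many of them neighbour each other and have nearly the same values, so reads may be counted at several. The only model outside the assigned groups at 1 RPKM was Glyma.13G045500, at 1.60 RPKM in root, 1.52 in the 25–50 mg seed coat and 0.893 in leaf.

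Some members of different groups lie side by side with unlike levels. Within 5 model numbers on a chromosome, 49 pairs of members were found, and in 8 both reached 1 RPKM. No such count was made for neighbours among all models. In the 7 pairs of an AP1 or FUL match beside a SEP match, the SEP member reached 1 RPKM and was highest in a seed coat each time, while 2 of the AP1 and FUL members reached 1 RPKM. The groups as a whole were alike, so these counts are no result about neighbours. Of all 15 SEP matches 14 reached 1 RPKM and 13 were highest in a seed coat, and of all 12 AP1 and FUL matches 2 reached 1 RPKM. Glyma.05G018800 (FUL) was highest in leaf at 10.97 RPKM and its neighbour Glyma.05G018900 (SEP4) in the 200–300 mg seed coat at 3.58. On chromosome 3, Glyma.03G019300 (SOC1) stood at 2.57 RPKM in leaf and Glyma.03G019400 (AGL6) at 2.98 in the 25–50 mg seed coat. On chromosome 7 the same 2 kinds lay side by side, Glyma.07G080900 (SOC1) at 6.19 RPKM in leaf and Glyma.07G081300 (AGL6) at 3.01 in the 25–50 mg seed coat.

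Black and yellow seed coats of 25–50 mg seed held nearly the same set of MADS-box transcripts. These libraries share read length and instrument. Of 45 members with at least 1 RPKM in either, 0 were at least 2-fold higher in W55 and 3 at least 2-fold lower, beside 2.83% of all models higher and 3.34% lower. The largest fall was that of Glyma.15G058000 (SVP), from 1.998 to 0.389 RPKM, or 47 to 11 hits, which was 5.13-fold lower (interval 2.62 to 10.98). Glyma.03G019300 (SOC1) went from 1.09 to 0.356 RPKM (3.06-fold lower, 1.48 to 6.81) and Glyma.13G256900 (SVP) from 2.81 to 1.35 (2.09-fold lower, 1.38 to 3.20). Of these 3, Glyma.15G058000 and Glyma.03G019300 reached 1 RPKM in Williams only, so the filter fixed their direction. All 3 are flowering-time matches that were highest in leaf as deposited, although without the chromosome 13 models Glyma.13G256900 was highest in the 5–6 mg seed coat, at 5.32 RPKM against 4.48 in leaf. AP3 matches Glyma.03G111500 and Glyma.12G118100 came next, at −0.90 and −0.71 on the log2(RPKM + 0.1) scale, with intervals of the ratio that include 1.

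The largest rises were below 2-fold. Glyma.05G148700 (MAF3) was 1.75 times as high in W55 (interval 1.33 to 2.30), at 4.76 against 2.73 RPKM. Glyma.08G105400 (SEP4) was 1.56 times as high (1.32 to 1.84), Glyma.04G043800 (AGL66) 1.53 times (1.14 to 2.08), Glyma.03G083700 (AGL80) 1.51 times (1.13 to 2.03) and Glyma.14G027200 (SHP1) 1.48 times (1.27 to 1.72). Intervals of 26 of the 45 members excluded a ratio of 1, 19 of them higher and 7 lower, but they hold no variation between plants or libraries.

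Members with high levels differed little. Of 21 members with at least 10 RPKM in either library 15 were higher in W55, with ratios from 0.731 to 1.56. Both STK matches were slightly higher, Glyma.04G257100 at 1.19 times (interval 1.15 to 1.24) and Glyma.06G324400 at 1.15 times (1.11 to 1.19). All 4 SHP matches were higher as well. The AG match Glyma.08G120600 was the lowest ratio of the 21, at 23.0 against 31.5 RPKM (0.731 times, 0.663 to 0.805), and the other AG matches lay between 0.862 and 0.989 times.

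The median difference of all 45 members was 0.19 on the log2(RPKM + 0.1) scale, against 0.03 for all models. Differences between these libraries vary with model length. Among models of 1000 to 1500 nt, which hold 32 of the 45, the median was 0.03 for members and 0.17 for all models. Above 1500 nt it was 0.25 for 7 members and −0.05 for all models. Up to 1000 nt it was −0.08 for 6 members and 0.24 for all models. The members' median was thus below that of all models in the shorter classes and above it in the longest.

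**Figure D5:**
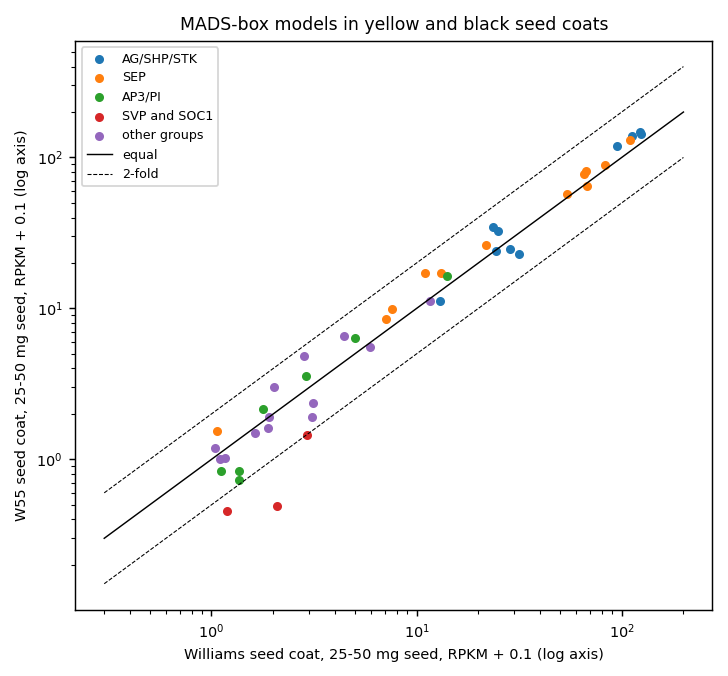
RPKM plus 0.1 in seed coats of 25–50 mg seed of Williams (x, log axis) and W55 (y, log axis), 1 point per MADS-box model, with lines for equality and for 2-fold higher and lower. Among the 45 models that reached 1 RPKM in Williams or W55, 3 lie more than 2-fold below equality, Glyma.15G058000, Glyma.13G256900 (SVP) and Glyma.03G019300 (SOC1).

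Genes tied to the functions of MADS proteins, not all of them partners of these proteins, were taken from 3 lists by Arabidopsis match. Of 36 models of floral identity and timing partners 23 reached 1 RPKM in a Williams library, and 8 of them were highest in a seed coat and 6 in leaf, beside 29.6% and 19.8% of all models. Their highest value was 109.9 RPKM in the 200–300 mg seed coat, for Glyma.16G196300, a match of TFL1, which represses flowering in the Arabidopsis shoot apex. It stood at 0.740 RPKM in the 25–50 mg seed coat and at 1.01 or less elsewhere. Like the AGL66 and AGL62 matches it was high in the 200–300 mg seed coat, but unlike them it was low in dry seed, at 0.0171 RPKM. The seed coat libraries of 25–50 and 200–300 mg differ in read length and instrument, and the part of that was not tested. The ovule and seed coat list holds matches of the enzyme gene BAN beside those of regulators. Of its 36 models 30 reached 1 RPKM, 14 of them highest in a seed coat, beside the same 29.6%. Glyma.08G062000, a match of the anthocyanidin reductase gene BAN, led the list with 465 RPKM in the 5–6 mg seed coat, 103 at 25–50 mg and 122 in W55. The highest match of a regulator was Glyma.19G177400 (TTG2), at 58.4 RPKM in the 25–50 mg seed coat. Of 20 Polycomb (PRC2) models, whose complex silences MADS-box genes in Arabidopsis, 15 reached 1 RPKM, 8 of them highest in a cotyledon, beside 19% of all models. Glyma.05G131200 (MSI1) was the highest, between 6.68 and 37.1 RPKM in all libraries. In W55, 0 of the 10, 16 and 15 measured models of the 3 lists were at least 2-fold higher or lower than in Williams, beside 2.83% and 3.34% of all models.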

How the data were processed

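The authors aligned the reads of each library with Bowtie 1 to the transcripts of all Glyma models (Wm82.a2), allowing 3 mismatches and at most 25 alignments for a read. The deposited values are RPKM of the first splice variant, with Pfam domains and the closest Arabidopsis match. A read that fits several near-identical models is counted at each. The exact version of Bowtie is not given in the sources used here.

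Library totals were recovered as the smallest that make the hits of 48 models whole (tolerance 0.001), with cDNA lengths listed by the study, and model lengths as the shortest that make hits whole in all 12 libraries. Their number limits the precision of low values. Members and lists were chosen with earlier results of these data known. With 1 library per condition no test was possible. Pairs of libraries were compared on log2(RPKM + 0.1) at a limit of 2-fold, for models that reached 1 RPKM in one of the libraries, and by RPKM ratio with a 95% interval. A ratio to 0 hits is a bound at 3 hits per library. The computation was tested on simulated data. The models named were fixed by a rule: the 20 highest members, the highest of each group, all AG, SHP, STK, TT16, AGL15 and AGL18 matches, the 5 largest rises and 5 largest falls in W55, and the highest model of each list. Further members are named after their values were seen. Alternatives were other pseudocounts, median-ratio and TPM scaling, totals without the chromosome 13 models, other minimum values and a 4-fold limit. Neither sequences nor coordinates were used here, and chromosomes are those of the model names. Python 3.11.15, NumPy 2.4.6, SciPy 1.17.1, pandas 2.3.3 and matplotlib 3.10.9 were used.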

Additional observations from a re-analysis of the deposited data

How the results depend on the processing

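No paired analysis was possible because each condition has 1 library and no result comes from a test. Of 65 alternative counts of members, 43 stayed within 1.5 times the count reported and 22 moved further. Another minimum changes how many members are measured, and for the other settings the cause was not tested. The tally of counts had no class for a reversed direction. Of the member and share values, 456 were classed as the same and 306 as moved. Values of named members also had a class for a called difference of reversed sign, and no value fell in it. Direction did depend on the totals between seed coats of 5–6 and 25–50 mg, a pair outside the classed comparisons. Of 42 members, 40 were higher at 25–50 mg as deposited and 31 without the chromosome 13 models. For W55 against Williams, with 3 members past 2-fold, a pseudocount of 1 RPKM gave 1, TPM scaling 5 (1 higher and 4 lower), a minimum of 5 RPKM 0, no minimum 26 and a 4-fold limit 1. For the seed coat at 200–300 against 25–50 mg, with 29, the minimum of 5 RPKM gave 16, no minimum 54 and 4-fold 18, and TPM scaling split the calls 12 higher to 28 lower in place of 6 to 23. For dry against 200–300 mg seed coat, with 36, the minimum of 5 RPKM gave 20. For the cotyledon at 200–300 against 5–6 mg, with 5, TPM scaling gave 8 (2 higher and 6 lower), the minimum of 5 RPKM 1 and no minimum 17. For seed coat against cotyledon, the minimum of 5 RPKM gave 17 in place of 30 at 5–6 mg and 21 in place of 37 at 200–300 mg, and no minimum gave 50 and 70. For axis against cotyledon, with 2, a pseudocount of 1 RPKM, the minimum of 5 RPKM and 4-fold each gave 0, TPM scaling 5 and no minimum 8. At least 5 RPKM was reached by 39 members in place of 71 at 1 RPKM. The seed coat was the organ of the highest value for 26 of 38 members at a minimum of 5 RPKM and for 42 of 70 with median-ratio scaling. Scaling moved the median of all models most in seed coat against cotyledon at 5–6 mg, by 0.94 on the log2 scale (median ratio), followed by the cotyledon at 200–300 against 5–6 mg, by 0.77 (TPM), and it moved dry against 200–300 mg seed coat by 0.69 (median ratio) and −0.68 (TPM). Without replicates, variation between plants is unknown, and leaf, with the lowest total, limits what can be seen under 0.188 RPKM.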
